A study of Mus musculus with 4 samples.

Results

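Adipoq, Fabp4, Lpl, Plin1 and Lep are 5 genes of the mature fat cell, and the chromatin around them was examined in adipose progenitors, which are the mesenchymal precursor cells of fat tissue. Open chromatin had been mapped by ATAC-seq, an assay that reads where a transposase could reach the DNA. The cells were freshly isolated from subcutaneous fat (SAT) or visceral fat (VAT) of C57BL/6 mice aged 16 weeks, with no further treatment. There were 4 libraries, called SAT 1, SAT 2, VAT 1 and VAT 2, each with its own list of peaks on mouse build mm9. Nothing in the labels ties the 2 libraries of a depot to different animals, and p-values then measure only the spread between these samples, which may be technical. Members were all listed peaks that overlapped 5 windows of 130 to 170 kb, 1 per gene. The windows were chr16:23080000-23220000 for Adipoq, chr3:10130000-10280000 for Fabp4, chr8:71330000-71500000 for Lpl, chr7:86800000-86950000 for Plin1 and chr6:28950000-29080000 for Lep. Overlapping peaks (1 bp or more) of any of the lists were joined, which gave 54 regions in the 5 windows of 83319 in the whole genome.

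A mature white adipocyte stores triglyceride in a large droplet and secretes hormones. Adipoq encodes adiponectin and Lep encodes leptin, both hormones released by adipocytes. Lpl encodes lipoprotein lipase, which frees fatty acids from circulating lipoproteins, Fabp4 encodes a fatty acid carrier of the cytoplasm, and Plin1 encodes perilipin 1, the coat protein of the lipid droplet that guards it against lipolysis. Their expression rises as progenitors differentiate, mainly under PPARG and C/EBP factors. A progenitor is therefore studied before this programme is fully active, and a peak near a gene does not show that the gene was transcribed.

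Sequences at the starts of the genes are shown because each window was laid around one of these genes. Promoter sequences were found for 3 of the 5 genes in the RefSeq table of build GRCm38.p6. The 150 bases before the start are printed 5′ to 3′ on the gene's strand, with capitals at the motifs searched. These were the CCAAT box, also read on the other strand as ATTGG. A further motif was the TATA box letters TATAA, or TTATA on the other strand, and the last was the palindrome TTGCGCAA.
Adipoq: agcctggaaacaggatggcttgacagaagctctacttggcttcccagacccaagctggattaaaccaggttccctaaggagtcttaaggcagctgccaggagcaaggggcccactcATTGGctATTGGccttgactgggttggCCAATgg
Plin1: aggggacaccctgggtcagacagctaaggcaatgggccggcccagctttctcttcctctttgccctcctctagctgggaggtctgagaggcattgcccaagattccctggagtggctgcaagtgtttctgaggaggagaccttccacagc
Lep: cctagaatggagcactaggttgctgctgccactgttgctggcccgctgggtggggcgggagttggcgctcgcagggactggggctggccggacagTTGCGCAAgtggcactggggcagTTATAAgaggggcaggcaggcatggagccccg
The Adipoq promoter held the letters of the CCAAT box 3 times, beginning 34, 27 and 7 bases before the start. The Lep promoter held TTGCGCAA, the palindrome that C/EBP proteins are known to bind, beginning 55 bases before the start. TATAA followed there at 31 bases before the start, and TTATA overlapped it. None of these letters were found in the 250 bases before the Plin1 start. Of 32851 promoters in the table, searched on both strands over 250 bases, 33.8% held CCAAT, 22.8% held TATAA and 0.164% held TTGCGCAA. The last of these motifs was chosen after the Lep sequence had been seen. No mm9 sequence or annotation was used, so the peaks below are given by position on mm9 and were not placed on these promoters, nor on exons or introns. In RefSeq order, the protein-coding neighbours are Rfc4 and St6gal1 for Adipoq, Fabp9 and Fabp12 for Fabp4, Ints10 and Slc18a1 for Lpl, Kif7 and Pex11a for Plin1, and Lrrc4 and Rbm28 for Lep. A peak in a window may belong to such a neighbour, which was not tested. Markers of progenitors and of other cell types were not analysed here for the same reason.

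The SAT 2 list stood apart before any comparison. It held 22845 peaks, against 56823 in SAT 1, 56907 in VAT 1 and 62279 in VAT 2. Read counts are not part of the lists. Depth is therefore unknown, and chromatin without a listed peak is not shown to be closed. Across the genome, 7809 regions had a peak in both replicate 1 libraries and no other. The count was 3835 in both visceral libraries alone and 4110 in SAT 1 and VAT 2 alone. Pairs that include SAT 2 were rarer, at 543 together with VAT 2, 92 with SAT 1 and 80 with VAT 1. Such counts are limited by the short SAT 2 list. Whether the lists group by depot or by replicate cannot be read from them. Each peak carries the authors' peak caller score, used here as a percentile within its own list, where 100 is the strongest peak of that library. The list median is close to 50 in each library by construction. A difference between percentiles of lists of unequal length cannot by itself show a change in openness, and SAT 1 and VAT 1 are the pair of most similar length.

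All 5 windows held open chromatin in progenitors of both depots. Each window had at least 1 region with a peak in all 4 libraries, and there were 9 such regions in all. SAT 1 had 32 peaks in the windows, SAT 2 had 12, VAT 1 had 31 and VAT 2 had 44. The 9 regions open in all libraries were 16.7% of the 54, against 23.2% of all regions in the genome. A further 10 regions (18.5%, genome 19.5%) were missing from SAT 2 alone. With SAT 2 set aside, 19 of 54 regions were open in all of the other 3 libraries, which is 35.2% against 42.7% in the genome. Another 24 regions (44.4%, genome 36.4%) had a peak in 1 library only, and 15 of them were in VAT 2, whose list is the longest (27.8% of the 54, genome 19.6%). SAT 1 alone had 6, VAT 1 alone had 3, and SAT 2 alone had 0. The shares in the windows thus lay near those of the genome, with somewhat fewer shared and more single-library regions.

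**Figure D1:**
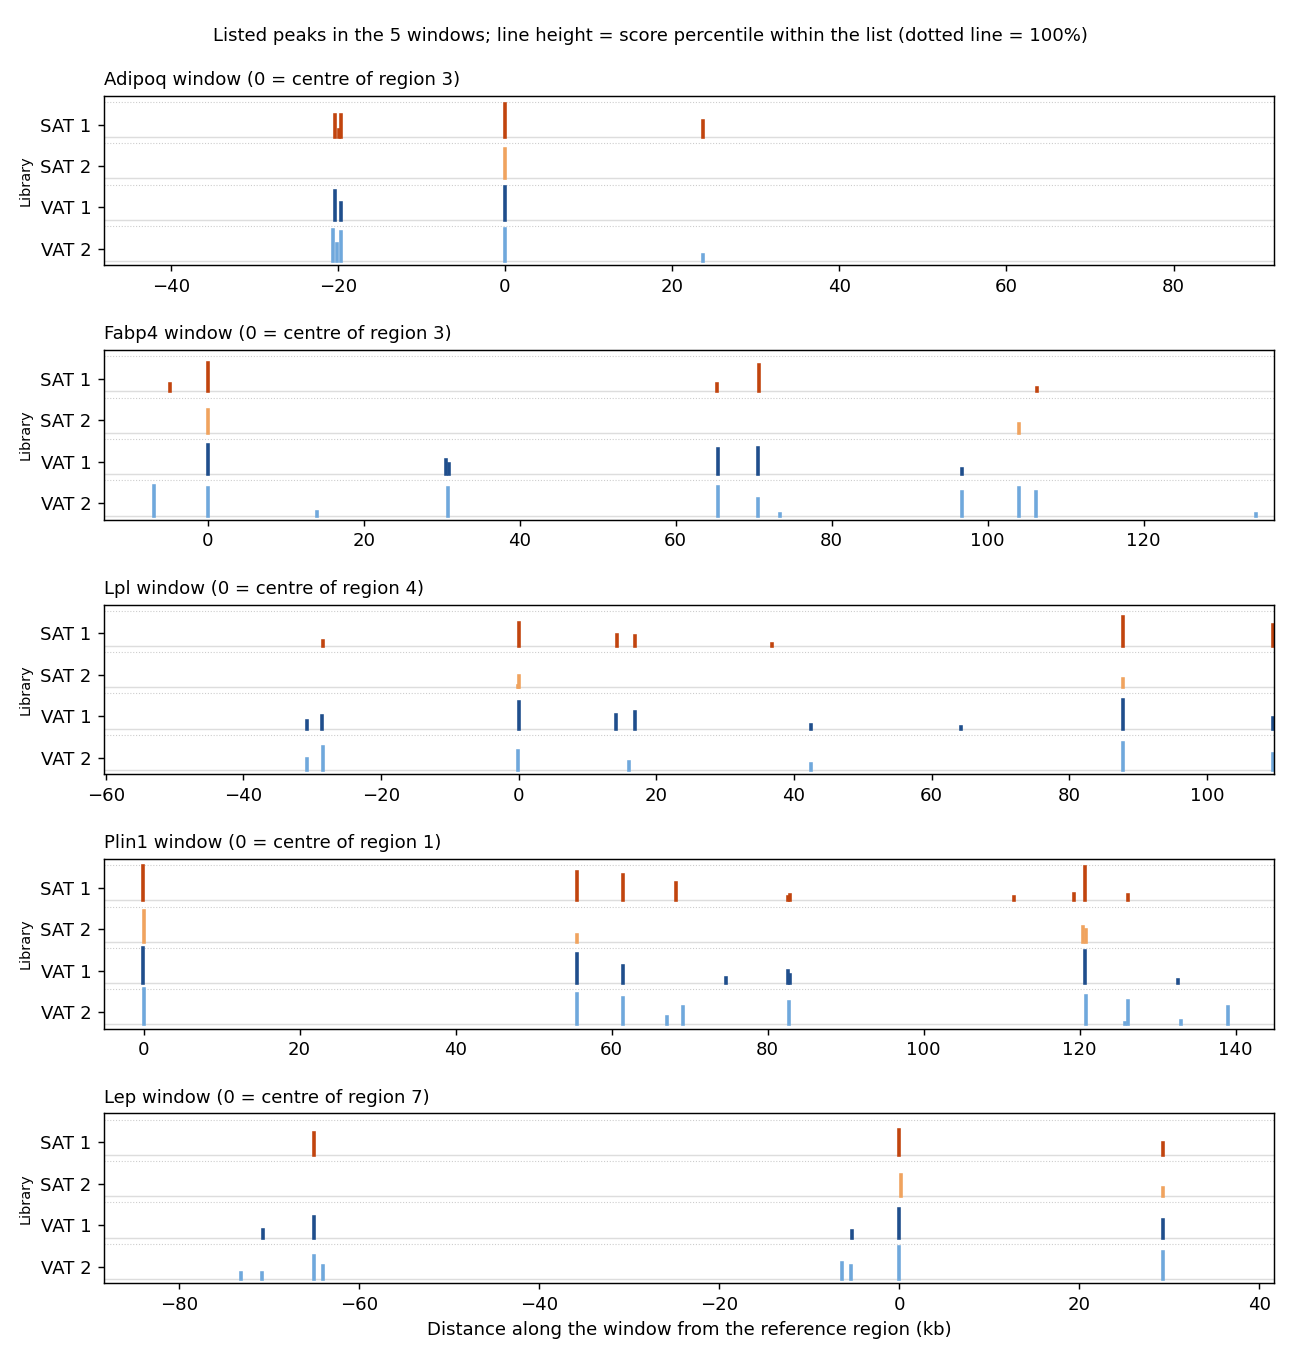
Listed peaks along the 5 windows, 1 row per library. The x axis is the distance in kb from the centre of the region open in all 4 libraries with the highest percentile in its weakest library, and the height of each line is the score percentile of the peak within its list, with 100% at the dotted line. SAT 2 (light orange) has 12 peaks in all, and the Adipoq window holds peaks at 3 places only.

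Peaks in the windows ranked near or below the middle of their lists. The median percentile of the window peaks was 39.1 in SAT 1, 32.4 in SAT 2, 46.1 in VAT 1 and 52.7 in VAT 2. Peaks at or above the percentile of 90 numbered 3 in SAT 1 (9.38% of its window peaks), 3 in VAT 1 (9.68%), 3 in VAT 2 (6.82%) and 0 of 12 in SAT 2, against 9.96% to 10.1% of all listed peaks by construction. These strong peaks fell in Adipoq region 3, Plin1 regions 1 and 12 and Lep region 7, where regions are numbered along each window. Over the 9 regions open in all libraries, the median percentile was 82.0 in SAT 1, 43.0 in SAT 2, 82.6 in VAT 1 and 80.3 in VAT 2. Over all 19350 such regions of the genome it was 80.4, 55.6, 80.3 and 83.5. Shared regions were wider than the others here as in the genome: the median width was 594 bp for regions open in 4 libraries (genome 524 bp) and 139.5 bp for those in a single library (genome 130 bp). Widths are those of the joined peaks, so a region joined from several libraries is wider in part by construction.

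Adipoq, the adiponectin gene, had the sparsest window, and 1 strong region in it was open in all libraries. The window of 140 kb held 4 regions, against a mean of 4.42 in 18857 genome tiles of the same length, and lay at the percentile of 59.8 of those tiles. Tiles were laid end to end over the 19 autosomes and X without regard to genes, and many hold no region. Adipoq region 3, at chr16:23127570-23128390, stood at the percentile of 94.9 in SAT 1, 84.1 in SAT 2, 91.7 in VAT 1 and 92.5 in VAT 2. Its weakest value was higher than in 84.2% of the regions open in all libraries, and its 821 bp were wider than 85.3% of them. It was the only region in which SAT 2 ranked above 80 outside the Plin1 window. Before it, at 18.9 kb, lay a pair of regions separated by 85 bp. Adipoq region 1, at chr16:23107140-23107984, was the widest of the 5 windows at 845 bp and stood at 61.4 in SAT 1, 80.8 in VAT 1 and 87.0 in VAT 2. Adipoq region 2, at chr16:23108070-23108622, had 61.7, 46.1 and 81.9. SAT 2 had no peak in either. The last, Adipoq region 4 at chr16:23151616-23151740, was a weak peak of SAT 1 (45.2) and VAT 2 (17.3) only. From its end to the end of the window no library listed a peak.

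Lep, the leptin gene, had 8 regions in its 130 kb, of which 2 were open in all libraries. Genome tiles of that length held a mean of 4.11 regions, and the Lep window lay at their percentile of 81.1. Lep region 7, at chr6:29037988-29038711, had percentiles of 69.9 in SAT 1, 58.9 in SAT 2, 80.6 in VAT 1 and 90.4 in VAT 2. Both visceral values lay above both subcutaneous values. Lep region 8, at chr6:29067389-29067974 and 29.3 kb away from centre to centre, was weaker, with 33.0 in SAT 1, 23.6 in SAT 2, 49.2 in VAT 1 and 76.4 in VAT 2. The depots did not overlap there either, but among lists of equal length only SAT 2 and VAT 2 kept a peak in it. With SAT 2 set aside, the lowest percentile of Lep region 8 was higher than in only 9.95% of all regions open in all libraries. Lep region 3, at chr6:28973188-28973515, was even across the libraries that had it, with 60.7 in SAT 1, 58.5 in VAT 1 and 64.1 in VAT 2. Lep region 6, at chr6:29032879-29033148, was near the bottom of the SAT 1 list (0.198) and stood at 18.8 in VAT 1 and 37.0 in VAT 2. Lep region 2, at chr6:28967561-28967693, was restricted to visceral progenitors, at 22.0 in VAT 1 and 17.3 in VAT 2. Between Lep regions 4 and 5 lay a stretch of 57.5 kb without a peak in any library.

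Lpl, the lipoprotein lipase gene, had 13 regions in 170 kb, and most were weak. The tile mean was 5.36 regions, and the Lpl window lay at the percentile of 87.7. Regions open in all libraries lay 87.8 kb apart. Lpl region 4, at chr8:71389997-71390533, had percentiles of 65.6 in SAT 1, 32.4 in SAT 2, 75.6 in VAT 1 and 55.0 in VAT 2. Lpl region 12, at chr8:71477756-71478349, had 82.3, 23.6, 80.5 and 76.2 in the same order. In both of them the subcutaneous and visceral values overlapped. Between them, from 71404354 to 71407299, lay a group of 4 regions, named here after their values were seen, in which no region was shared within a depot. Lpl region 5 had peaks in SAT 1 (30.0) and VAT 1 (39.9) only, and Lpl region 8 in SAT 1 (27.9) and VAT 1 (48.3) only, whereas Lpl region 6 was listed in SAT 1 alone (0.708) and Lpl region 7 in VAT 2 alone (22.7). These were the only 2 regions of the 54 (3.70%, genome 9.37%) shared by SAT 1 and VAT 1 and no other library. Lpl region 13, at chr8:71499726-71499999, stood at 59.3 in SAT 1, 29.0 in VAT 1 and 45.3 in VAT 2. Lpl region 3, at chr8:71361683-71361848, stood at 14.1, 35.4 and 65.7. The regions restricted to visceral progenitors were Lpl region 2 at chr8:71359355-71359555 (22.0 in VAT 1 and 32.7 in VAT 2) and Lpl region 10 at chr8:71432565-71432833 (8.99 and 17.3).

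Fabp4, the fatty acid carrier gene, had the largest visceral excess of peaks of the 5 windows. Like the Lpl window, its window had 2 of the 5 regions restricted to visceral progenitors. It held 12 regions in 150 kb, against a tile mean of 4.74, at the percentile of 88.5. Only Fabp4 region 3, at chr3:10143102-10143496, was open in all libraries, at 80.0 in SAT 1, 65.4 in SAT 2, 82.6 in VAT 1 and 78.1 in VAT 2. Its depots overlapped. Fabp4 region 6, at chr3:10208502-10208817, had the widest gap between depots of the 10 window regions missing only from SAT 2: it stood at 22.0 in SAT 1, 72.1 in VAT 1 and 80.2 in VAT 2. The lower visceral value exceeded that of SAT 1 by 50.1 percentile points. Of the 16206 regions of this pattern in the genome, 54 had a larger excess, and the median was -9.81. Fabp4 region 7, 4.9 kb further on at chr3:10213732-10214021, went the other way. It stood at 75.0 in SAT 1, almost the same in VAT 1 (74.6) and 48.3 in VAT 2. Fabp4 region 5, at chr3:10173644-10174398, was restricted to visceral progenitors, at 41.4 in VAT 1, where 2 peaks lay in it, and 78.2 in VAT 2. Its 755 bp made it wider than all but 1 of the 3835 regions restricted to visceral progenitors, and its weaker value was exceeded by 319 of them. That width is of joined peaks: a VAT 2 peak of 612 bp linked the VAT 1 peaks of 354 and 142 bp. Fabp4 region 9, at chr3:10239943-10240103, had the same restriction, at 15.2 and 67.0. The others were chosen after their values were seen. VAT 2 alone had a strong peak in Fabp4 region 1 (84.0), and it shared Fabp4 region 10 with SAT 2 (23.6, against 78.5 in VAT 2) and Fabp4 region 11 with SAT 1 (10.9, against 66.5).

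Plin1, the perilipin gene, had the densest window and the strongest region. It held 17 regions in 150 kb, at the percentile of 96.0 of the genome tiles, and 3 of them were open in all libraries. Plin1 region 1, at chr7:86804830-86805318, stood at 98.9 in SAT 1, 87.2 in SAT 2, 99.9 in VAT 1 and 99.8 in VAT 2. It lies near the window's edge, 55.6 kb before the next region open in all libraries. Plin1 region 2, at chr7:86860329-86860985, had 82.0 in SAT 1, 19.2 in SAT 2, 83.8 in VAT 1 and 87.6 in VAT 2. In both regions the visceral values lay above the subcutaneous ones, over the nearest subcutaneous value by only 0.946 points in region 1 and 1.71 points in region 2. Plin1 region 12, at chr7:86925399-86926179, had 93.5, 43.0, 91.9 and 80.3, and its depots overlapped. Plin1 region 3, at chr7:86866274-86866843, stood at 71.3 in SAT 1, 49.0 in VAT 1 and 75.3 in VAT 2. Plin1 region 8, at chr7:86887484-86888071, had the order 15.0, 35.4 and 64.3 over the same libraries. No Plin1 region was restricted to a depot, against 4.60% of genome regions for visceral and 0.110% for subcutaneous progenitors. Of the 17 regions, 11 were listed in a single library (genome 36.4%).

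**Figure D2:**
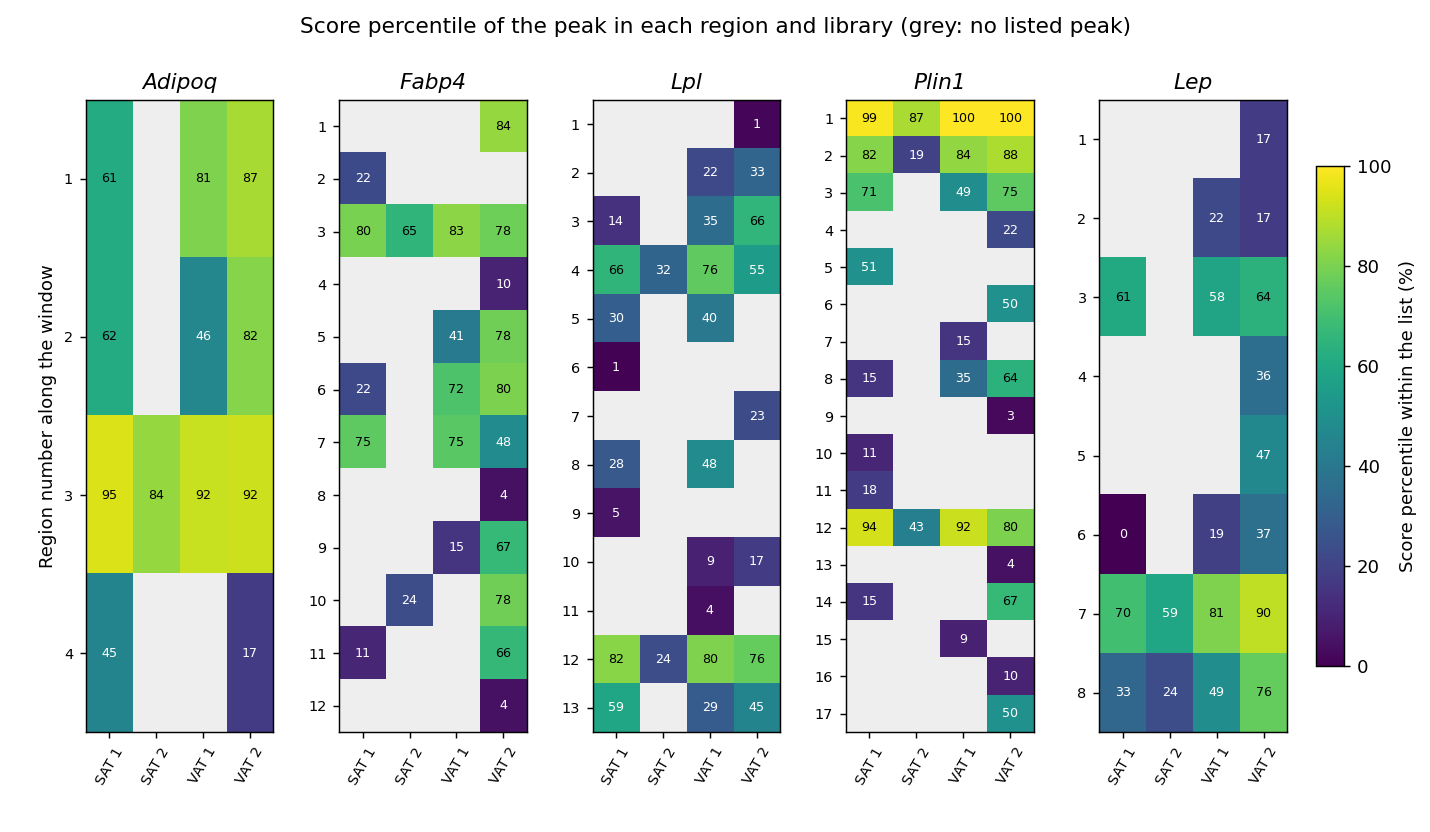
Score percentile of the strongest peak in each of the 54 regions (rows, numbered along each window) in each library (columns), rounded to whole numbers. Grey cells have no listed peak, the SAT 2 column is mostly grey, and Adipoq region 3 and Plin1 region 1 are high in all 4 columns.

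Subcutaneous and visceral progenitors were then compared over these windows, the comparison for which the study was designed. No region of the 5 windows was restricted to subcutaneous progenitors, that is, with a peak in both SAT libraries and in neither VAT library (0 of 54; 0.110% in the genome). Restricted to visceral progenitors were 5 of 54 regions, or 9.26%, against 4.60% in the genome: Fabp4 regions 5 and 9, Lpl regions 2 and 10 and Lep region 2. Adipoq and Plin1 had none. Without SAT 2 the count of 5 could gain only regions shared by SAT 2, VAT 1 and VAT 2. The windows held 0 of these (genome 0.468%), and the count did not change. The subcutaneous count then became 6, from regions of SAT 1 alone (11.1%, genome 7.84%). The visceral count was 15 without SAT 1, 20 without VAT 1 and 9 without VAT 2, since 1 library then stands for a depot. Without SAT 1 it took in the regions missing only from SAT 2 (18.5% of the 54, genome 19.5%). Without VAT 1 it took in those of VAT 2 alone (27.8%, genome 19.6%), and without VAT 2 those of VAT 1 alone (5.56%, genome 8.58%). Fabp4 region 5 also counted as 2 regions without VAT 2, whose peak had joined its 2 VAT 1 peaks. Among lists shortened to the 22845 highest-scoring peaks each, 7 of 23 regions were open in all libraries (30.4%; genome 38.7%), 1 was restricted to visceral progenitors (4.35%; genome 1.81%) and 0 to subcutaneous (genome 1.50%). That 1 was Fabp4 region 6, whose SAT 1 peak ranked too low to be kept. None of the 5 regions named above was restricted to both visceral libraries then. Fabp4 regions 5 and 9 kept a peak in VAT 2 alone, and Lpl regions 2 and 10 and Lep region 2 kept none.

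Over the 9 regions open in all libraries, 4 had both visceral percentiles above both subcutaneous ones (44.4%; genome 32.7%), and 0 had the reverse (genome 2.99%). The 4 were Plin1 regions 1 and 2 and Lep regions 7 and 8. SAT 2 percentiles were low over all such regions of the genome, and depot and list length cannot be told apart here. Among lists of equal length, 2 of 7 had both visceral values higher (28.6%; genome 15.8%), Plin1 regions 1 and 2. The reverse held for 1 of 7 (14.3%; genome 15.0%), Adipoq region 3, with 87.3 in SAT 1 and 84.1 in SAT 2 against 79.4 in VAT 1 and 79.5 in VAT 2. Lep region 7 then overlapped between depots, at 25.2 and 58.9 against 51.7 and 73.9, and Lep region 8 was no longer open in all libraries. Among the 10 regions missing only from SAT 2, both visceral percentiles exceeded that of SAT 1 in 5 of 10 (genome 31.7%) and lay below it in 2 of 10 (genome 30.0%). The 5 were Adipoq region 1, Fabp4 region 6, Lpl region 3, Plin1 region 8 and Lep region 6. The median percentile over the 9 regions was 62.5 ± 27.6 in subcutaneous and 81.4 ± 1.56 in visceral libraries (SD, n = 2 each), and a two-sided exact permutation test over libraries gave p = 0.667. The difference of 18.9 points rested on SAT 2: over the same 9 regions it was -0.601 without that library. Between replicate 1 libraries it was 0.501 and between replicate 2 libraries 37.3. Over the 19 regions open in the other 3 libraries the visceral mean lay 9.94 points above SAT 1.

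Relative to the length of each list, the Fabp4 and Lep windows had more peaks in both visceral libraries than in either subcutaneous one, and the other 3 windows overlapped between depots. The same order of depots held in 7.71% of genome tiles of the Fabp4 window's length and 7.06% of those of the Lep window's, or 10.7% and 10.1% of the tiles that hold a region. At the lengths of the windows that overlapped, it held in 7.43% (Adipoq), 7.91% (Lpl) and 7.71% (Plin1) of tiles. The Fabp4 window held 5 peaks in SAT 1, 2 in SAT 2, 6 in VAT 1 and 11 in VAT 2. Per 10000 listed peaks this was 0.880, 0.875, 1.05 and 1.77, with means of 0.878 ± 0.00315 and 1.41 ± 0.503 (SD, n = 2 each). The Lep window held 4, 2, 5 and 8 peaks, or 0.704, 0.875, 0.879 and 1.28 per 10000, with means of 0.790 ± 0.121 and 1.08 ± 0.287. SAT 2 and VAT 1 were almost equal there. The two-sided exact permutation test over libraries gave p = 0.33 in both, which is the smallest value that 2 libraries against 2 allow, and 0.833 after Benjamini-Hochberg adjustment over the 5 windows. The excess was larger than in 97.1% of genome tiles of equal length for Fabp4 (0.533 per 10000) and 91.4% for Lep (0.292 per 10000), where the median tile had 0 and tiles without a region are included. It rested in part on VAT 2: without that library the excess was 0.177 for Fabp4 and 0.0889 for Lep. For Lep the depots overlapped under 3 of the other settings, and the excess was 0 with lists of equal length, 0.0434 in the top 50% of each list and 0.0217 in the central 50% of the window (p = 1.0 in the exact permutation test for each). For Fabp4 the depots stayed apart under these settings, at 1.31, 0.861 and 0.665.

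For Adipoq, Lpl and Plin1 the depots did not separate. The Adipoq window held 5 peaks in SAT 1, 1 in SAT 2, 3 in VAT 1 and 5 in VAT 2, or 0.659 ± 0.313 and 0.665 ± 0.195 per 10000 (SD, n = 2 each). The Lpl window held 8, 3, 9 and 8 peaks, or 1.36 ± 0.0670 and 1.43 ± 0.210 per 10000. The Plin1 window held 10, 4, 8 and 12 peaks, or 1.76 ± 0.00631 and 1.67 ± 0.368 per 10000. The exact permutation test gave p = 1.0 in each of these. The direction of these differences turned when a library was left out. For Adipoq, 0.00618 became -0.215 without SAT 2 and -0.132 without VAT 2. For Lpl, 0.0725 became -0.076 without VAT 1, and for Plin1, -0.0891 became 0.171 without VAT 1.

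**Figure D3:**
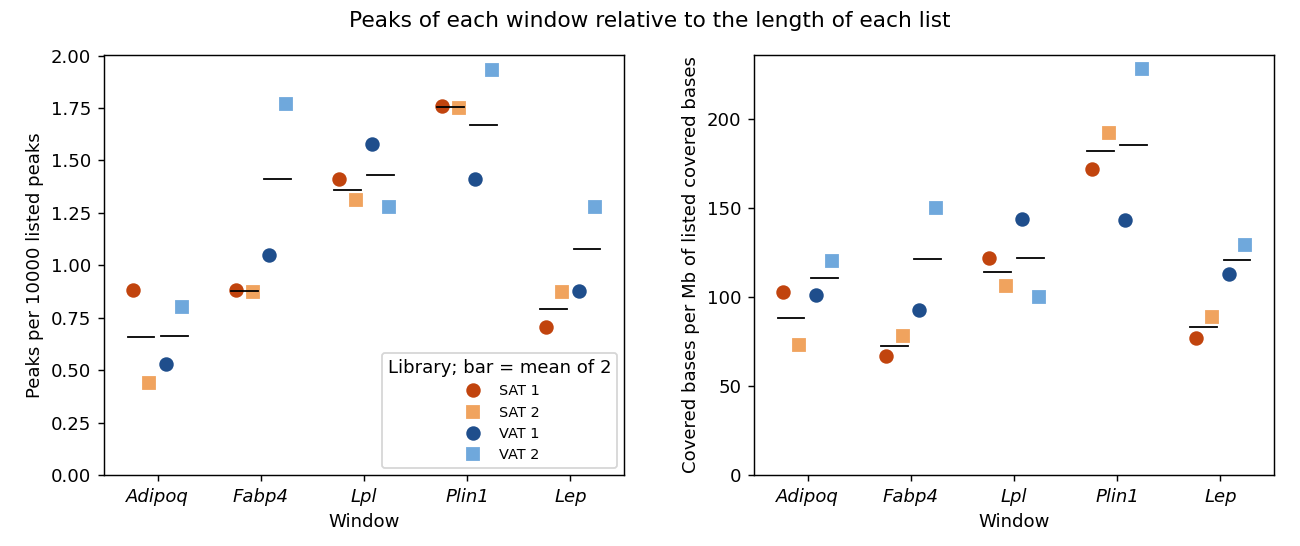
Peaks per 10000 listed peaks (left) and covered bases per Mb of listed covered bases (right) in each window. Points are libraries, circles replicate 1 and squares replicate 2, and bars are means of 2 libraries. In the Fabp4 and Lep windows both visceral points lie above both subcutaneous points in both panels.

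Covered bases gave the same order of depots in Fabp4 and Lep. They come from the same peaks and are not a separate check. The share of genome tiles with this order was not computed for covered bases. Peaks of the Fabp4 window covered 1055, 452, 1487 and 2726 bp in SAT 1, SAT 2, VAT 1 and VAT 2, or 67.1, 77.8, 92.6 and 150 bp per Mb of listed covered bases. Those of the Lep window covered 1210, 516, 1811 and 2350 bp, or 77.0, 88.8, 113 and 129 bp per Mb. Over the 5 windows together the values were 540 in SAT 1, 538 in SAT 2, 594 in VAT 1 and 727 in VAT 2 (two-sided exact permutation test over libraries, p = 0.33). The visceral mean exceeded the subcutaneous mean by 121 bp per Mb, and by 54.6 without VAT 2. The depots overlapped with lists of equal length (123 bp per Mb, exact permutation p = 1.0), in the top 50% of each list (150 bp per Mb, p = 0.667) and with 200 bp around each peak centre (81.4 bp per Mb, p = 0.667). For the number of peaks in the 5 windows together, the depots overlapped: 5.63, 5.25, 5.45 and 7.06 per 10000 in the same order, with p = 0.667 in the same exact test. The excess of 0.814 per 10000 was 0.00533 without VAT 2, and replicate 1 went the other way (-0.184) from replicate 2 (1.81).

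**Figure D4:**
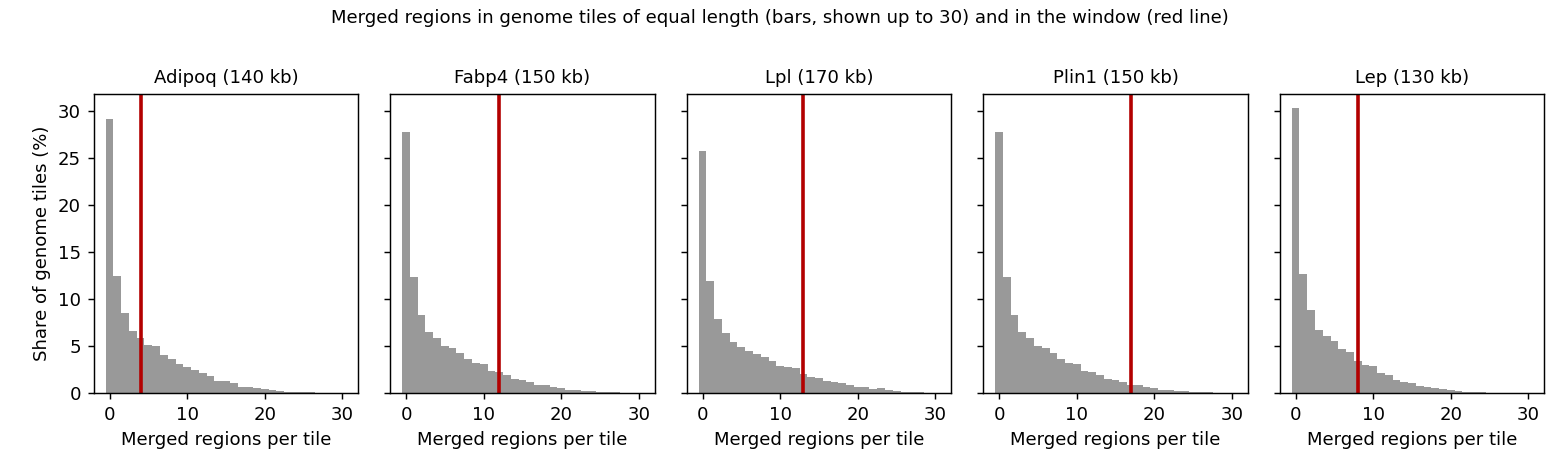
Number of merged regions in genome tiles of the same length as each window (grey bars, share of tiles in percent, shown up to 30 regions) and in the window itself (red line). Adipoq, with 4 regions, lies in the body of the distribution and Plin1, with 17, in its upper tail.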

How the data were processed

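Open chromatin was measured by ATAC-seq in 4 libraries of adipose progenitors, 2 per depot, grouped by the sample titles. Per the submitters' processing notes, Bowtie2 and MACS2 were used with build mm9. Their versions and options, and how duplicates, repeats and the transposase offset were handled, were not given in the sources used here. The authors deposited 1 peak list per library, with a peak caller score per peak (a whole number of 20 or more, scale not given), so replicates were not pooled. Scores were ranked within each list (mean rank for ties) and used only as percentiles.

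Peaks overlapping by at least 1 bp were merged across lists, and a region took the strongest peak of each library. The interval code was tested on simulated lists and gave the same regions as bedtools 2.31.1. Libraries were compared with two-sided exact permutation tests, adjusted over the 5 windows by the Benjamini-Hochberg method. Positions count from 1. Depth is unknown, so no detection limits are given. Members, lists and windows were chosen with earlier results of these data known. Named regions were, per window, up to 4 open in all libraries by their weakest percentile, the widest, up to 2 missing only from SAT 2, and all restricted to a depot. Other genes of the adipocyte programme were not analysed here, since no mm9 annotation was used. Python 3.11.15, numpy 2.4.6, pandas 2.3.3, scipy 1.17.1 and matplotlib 3.10.9 were used.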

Additional observations from a re-analysis of the deposited data

How the results depend on the processing

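Alternatives were lists of equal length, the top 50% of each list, a 50% reciprocal overlap, merging within 500 bp, 200 bp around each peak centre, the central 50% of each window, each library left out, and a replicate block. No tested value passed 0.05 under any of them, which 2 libraries against 2 cannot reach. Of 78 recomputed differences between depots, 65 kept their direction, including every one run for Fabp4. These counts, also for Fabp4, include differences that could not turn. They are all those under the replicate block, and the peak rates with 200 bp around each peak centre, which left them unchanged. Values over the same 9 regions without SAT 1, VAT 1 or VAT 2 were counted although they repeat other values. The 65 are therefore not 65 separate checks. With equal-length lists, the difference per 10000 peaks became -0.219 for Lpl, 0.219 for Plin1 and 0 for Lep. In the top 50% it became -0.133 for Adipoq and 0.349 for Plin1. In the central 50% of each window it became -0.146 for Adipoq, -0.198 for Lpl and 0.262 for Plin1. Leaving out 1 library gave -0.215 to 0.227 for Adipoq, -0.076 to 0.221 for Lpl and -0.35 to 0.171 for Plin1. The difference in median percentile over the same 9 regions, an alternative chosen after seeing the data, was -0.601 to 38.4 with a library left out, the lowest without SAT 2. The cause was not tested. Regions restricted to visceral progenitors numbered 1 with equal-length lists, 1 in the top 50%, 3 in the central 50%, and 5 to 20 with a library left out. Subcutaneous ones numbered 0 to 6 with a library left out and 0 otherwise. Genome shares with a library left out were not computed, so these counts are not a result about the windows.

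With the replicate block, that is, pairing libraries by replicate number, the differences were the same by construction: 0.814 peaks per 10000 and 121 bp per Mb over the 5 windows, 18.9 percentile points, and 0.00618 (Adipoq), 0.533 (Fabp4), 0.0725 (Lpl), -0.0891 (Plin1) and 0.292 (Lep). The exact permutation test with signs flipped gave p = 0.5 for Fabp4, Lep, covered bases and the percentiles, the smallest that 2 pairs allow. Within replicate 1 and replicate 2, in that order, the differences per 10000 were -0.184 and 1.81 over the 5 windows, -0.353 and 0.365 for Adipoq, 0.174 and 0.891 for Fabp4, 0.174 and -0.0287 for Lpl, -0.354 and 0.176 for Plin1, and 0.175 and 0.409 for Lep. They were 53.2 and 189 bp per Mb, and 0.501 and 37.3 percentile points. The labels do not say that a number marks shared animals or days.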
